A study of Rubus occidentalis with 14 samples.

Results

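The comparison set fruit at stage 1, the earliest of 5 numbered fruit stages of black raspberry (Rubus occidentalis), against fruit at stage 5, the last. Its members were the genes that reached 10 normalised counts in at least 2 of the 6 libraries of these stages, 18820 of the 33253 genes in the deposited table. Of the 14433 genes set aside, 8061 had no reads in any of the 6 libraries. Each stage had 3 libraries of poly(A) RNA from whole fruit, out of 14 libraries in the series, and the labels give both stages as fruit tissue of a single breeding selection, NC 349, grown at one research station, with no treatment other than the stage named. Each title also opens with a code, whose meaning is not stated; no code is shared between the stages, so codes and stages cannot be told apart. The labels call the libraries biological replicates without saying how plants or fruits were divided among them. P-values therefore cover only the spread among libraries, which may be technical in part. The limma p-values and SEs below take that spread from all 14 libraries, the middle stages included.

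A black raspberry is a cluster of small drupelets, each with a fleshy wall around a hard stone and seed. As fruits of this kind ripen they lose chlorophyll, gain anthocyanin pigments and sugars, lose acids and soften as their cell walls are taken apart, while the seed inside matures. Whole-fruit RNA mixes all of these tissues. The deposited table names genes by identifier only, and no identifier could be matched here to a gene name or product. The pigment, cell wall, photosynthesis, hormone and seed gene lists therefore could not be read, the fruit label and the state of ripeness could not be checked against marker genes, and the stages are called by number.

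A normalised count is the number of reads of a gene in a library divided by 1 scaling factor for that library. The 6 libraries held 7576338 to 35199548 reads, and 1 read was worth 0.319 to 2.76 normalised counts. Stage 5 replicate 2 was the coarsest. Under this scaling the 18820 genes had a median log2 change of -0.30 from stage 1 to stage 5. It was 0.08 after quantile normalization, over the same genes. It was -0.80 with upper-quartile scaling and -1.63 with every library scaled to equal total reads. Each of these last values is over the genes that passed the minimum on that scale. Directions below are relative to the deposited scaling unless another is named.

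Most of the fruit transcriptome differed between the ends of the series, and as deposited large falls outnumbered large rises. At an adjusted p below 0.05 (limma, Benjamini-Hochberg over all 18820 genes) 14897 genes were called, 79.2% of those tested, of which 6359 were higher at stage 5 (33.8%) and 8538 lower (45.4%). A change called larger than 2-fold, tested against that size with limma treat (adjusted p below 0.05), was found in 8673 genes (46.1%): 2867 rose (15.2%) and 5806 fell (30.9%). Bulk libraries cannot tell fewer cells of a type from less RNA per cell, and this holds for every change given here. The rising genes had a median log2 change of 1.35, with 10th and 90th percentiles of 0.54 and 3.69. The falling genes moved further, with a median of -2.61 and percentiles of -5.86 and -0.76, beside -0.30 for all genes. The libraries of both stages did not overlap in 6356 genes that were higher at stage 5 and 8644 that were lower, together 79.7% of those tested, against 79.2% called.

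The balance of rises and falls turned on the scaling. Of the called genes 42.7% rose as deposited, 52.7% after quantile normalization, 29.7% with upper-quartile scaling and 13.6% with equal total reads. Genes called higher at stage 5 under all 4 scalings numbered 2228, which is 35.0% of the 6359, and those called lower under all 4 numbered 5714, which is 66.9% of the 8538. For changes called larger than 2-fold these counts were 1025 rising and 3236 falling genes. After quantile normalization, rises of this size numbered 3686 and falls 3548, the reverse of the order as deposited.

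**Figure D1:**
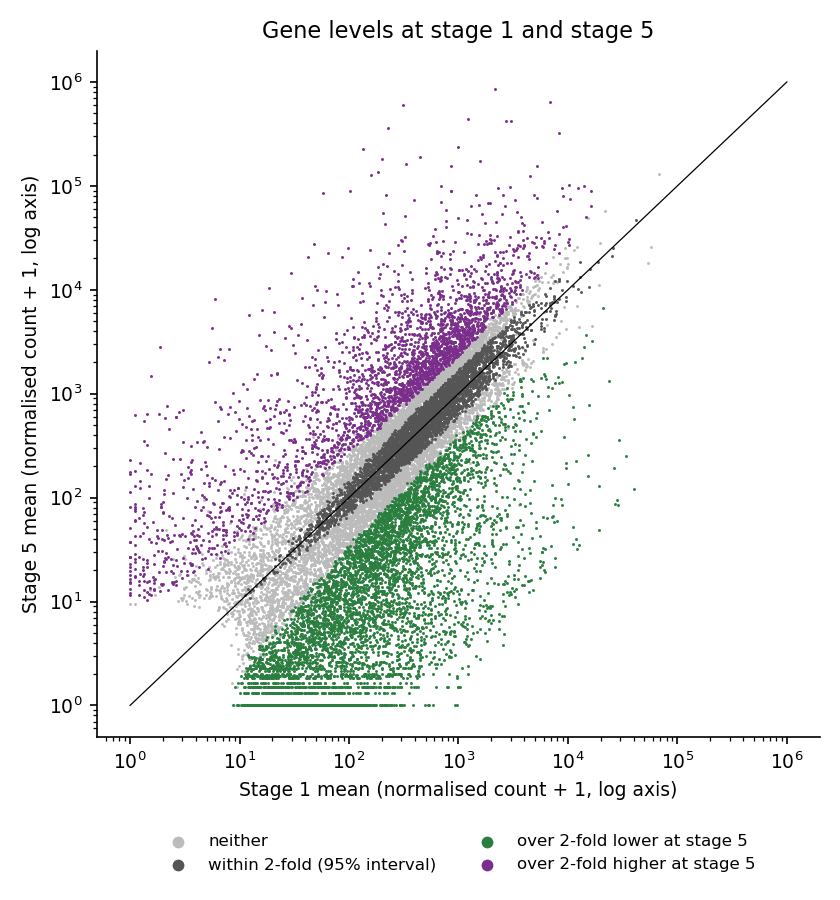
Mean level of each of the 18820 genes at stage 1 (x axis) and stage 5 (y axis), in normalised counts plus 1 on log axes, with the line of equal level. The 5806 genes that fell by more than 2-fold spread over the lower part of the plot, down to a stage 5 mean of 0, while the 2867 that rose reach stage 5 levels that no gene had at stage 1.

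Rises and falls sat at different expression levels. Genes were split by their mean over the 6 libraries. Among the 6214 genes with a mean under 100 normalised counts, 13.0% rose and 64.4% fell. Among the 8847 genes from 100 to 1000, the shares were 32.5% and 44.2%. Above that level the balance turned. Of the 3541 genes from 1000 to 10000, 70.1% rose and 17.3% fell, and of the 218 genes at 10000 or more, 192 (88.1%) rose and 14 (6.42%) fell. The median log2 change went from -2.03 in the lowest class through -0.20 and 0.95 to 3.36 in the highest. A mean over both stages lies near that of the higher one, so a gene enters the top class through its higher end.

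The number of genes present was smaller at stage 5. At least 10 normalised counts in all 3 libraries were found for 17440 genes at stage 1 and 14482 at stage 5, and 13854 genes met this at both. A further 2400 genes met it at stage 1 and lay under 10 in every stage 5 library, while 314 did the reverse. The stage 5 libraries were the coarser ones on average. There 1 read was worth 0.979, 2.76 and 1.48 normalised counts in replicates 1, 2 and 3, against 0.319, 1.48 and 0.331 at stage 1. In any of the 6 libraries 3 reads were worth at most 8.29. The part of depth in these counts of genes was not tested. At the upper end the order was the opposite: 302 genes held 10000 normalised counts or more in every stage 5 library against 41 in every stage 1 library. Above 100000 there were 19 genes at stage 5 and 0 at stage 1.

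Reads were carried by far fewer genes at stage 5. The number of genes that together made up 50% of a library's reads was 1650, 1610 and 1474 in stage 1 replicates 1, 2 and 3, and 249, 275 and 284 in stage 5 replicates 1, 2 and 3. The groups did not overlap, and the means were 1578 ± 92.3 and 269 ± 18.2 (SD, n = 3 each; two-sided exact permutation p = 0.1, the smallest that 3 against 3 allow). For 90% of the reads the numbers were 8244 ± 159 genes at stage 1 and 4020 ± 42.3 at stage 5 (SD, n = 3 each; two-sided exact permutation p = 0.1). These counts of genes do not depend on the scaling between libraries.

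**Figure D2:**
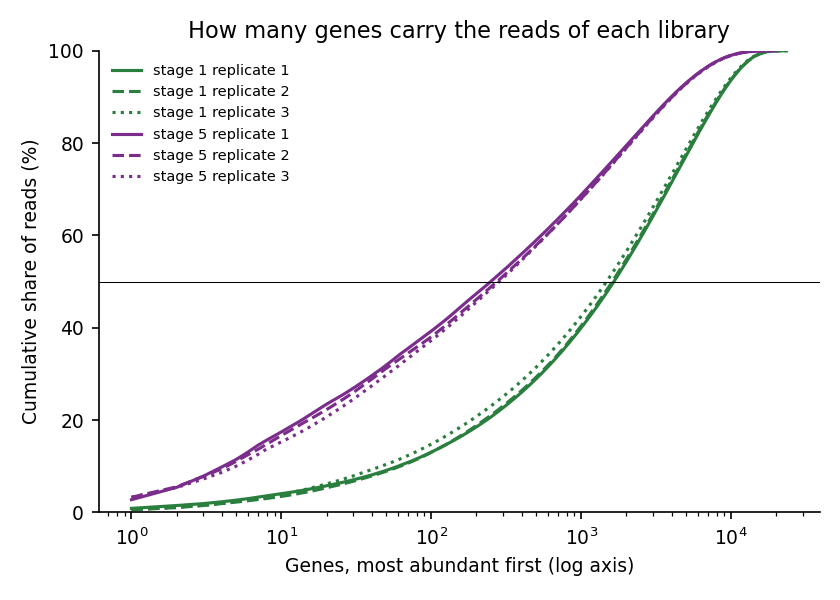
Cumulative share of the reads of each library (y axis, percent) over its genes ordered from the most to the least abundant (x axis, log axis), with 1 line per library and a horizontal line at 50%. The stage 5 lines cross it at 249 to 284 genes and the stage 1 lines at 1474 to 1650.

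Rising genes held most of the reads at stage 5. The 2867 genes that rose by more than 2-fold held 16.9% ± 0.76 of the reads at stage 1 (SD, n = 3), with a range of 16.1% to 17.5%, and 70.1% ± 0.79 at stage 5, with a range of 69.2% to 70.8%. The 5806 genes that fell by more than 2-fold held 26.8% ± 1.71 at stage 1 and 1.17% ± 0.09 at stage 5. These genes were chosen on the same libraries, so the shares are a description and were not tested. Rises were also the more concentrated: the 10 largest rises in mean level made up 22.7% of the summed rises of all genes, and the 10 largest falls 8.36% of the summed falls. For the 100 largest these shares were 50.5% and 27.3%.

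The most abundant genes of stage 5 were mostly not those of stage 1. Of the 100 genes with the highest mean at each end, 19 were in both lists. The 100 leading genes of stage 5 ranged from 29299 to 856300.4 normalised counts. Of these, 98 were called higher at stage 5 and 96 rose by more than 2-fold, beside 33.8% and 15.2% of all genes tested. The median level of the 100 was 57404 at stage 5 and 2179 at stage 1, and their median rank at stage 1 was 935. The 100 leading genes of stage 1 ranged from 7978 to 68471 normalised counts, and 34 of them rose, 18 by more than 2-fold, while 49 fell, 39 by more than 2-fold. The interval lay within 2-fold for 18, a class that can include called genes. At stage 5, 40 of them ranked below the leading 1000 genes. Of the 19 genes in both lists, 17 rose and 0 fell. Over all genes tested 45.4% fell, 30.9% by more than 2-fold. Both lists were picked on levels in the libraries compared. This favours rises in the stage 5 list and falls in the stage 1 list, so the counts are a description.

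Genes are named below by 1 rule: those called, with no overlap between the libraries of both stages, that had the largest differences of mean level, 2 in each direction. The largest rise was in Ro06_G22021. Its level was 1340, 4011 and 1117 normalised counts in stage 1 replicates 1, 2 and 3, and 770417, 899762 and 898722 in stage 5. The stage 1 libraries differed among themselves, with replicate 2 the highest, and all lay far below the stage 5 libraries. Its means were 2156 ± 1610 and 856300.4 ± 74379 (SD, n = 3 each), a 397-fold difference, with a log2 change of 8.88 ± 0.86 (SE) and a limma adjusted p of 6.28e-07. It ranked 952nd at stage 1 and was the most abundant gene of stage 5. On the log2 scale it passed the midpoint of its change at stage 3, with means of 71706 at stage 3 and 186901 at stage 4. The stage 2 libraries were far apart, at 309, 7461 and 1015 in replicates 1, 2 and 3. Their mean was 2928 ± 3941 (SD, n = 3).

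Ro04_G00194 had the second largest rise and took another course. It stood at 8203, 9354 and 3015 normalised counts in stage 1 replicates 1, 2 and 3, and at 747442, 611097 and 573333 in stage 5. The groups were far apart, at 6857 ± 3377 and 643957 ± 91588 (SD, n = 3 each), and the means differed 93.9-fold. The log2 change was 6.70 ± 0.47 (SE), with a limma adjusted p of 3.24e-08. It was already at 261366 ± 42159 at stage 2 (SD, n = 3), and passed the midpoint of its log2 change at that stage. Both genes stayed called in the same direction under every scaling and with each of the 6 libraries left out.

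The falls in mean level were smaller in counts, since no gene was as abundant at stage 1 as the leading genes of stage 5. Ro02_G34825 stood at 35736, 33129 and 51697 normalised counts in stage 1 replicates 1, 2 and 3, and at 12.7, 133 and 216 in stage 5. The stage 5 libraries were themselves far apart, with replicate 1 far below the other 2. The means were 40187 ± 10053 and 120 ± 102 (SD, n = 3 each), a 334-fold difference, with a log2 change of -9.07 ± 0.77 (SE) and a limma adjusted p of 1.94e-07. It ranked 5th at stage 1 and 10112th at stage 5. It was low from stage 2 on, with means of 294 at stage 2, 98.5 at stage 3 and 102 at stage 4. The log2 change was -11.35 between the replicate 1 libraries alone, -7.93 over replicates 2 and 3, and -7.85 without stage 5 replicate 1.

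Ro01_G21511 fell from a very high level, by an amount that depended on the scaling. It stood at 40923, 45930.0 and 74299 normalised counts in stage 1 replicates 1, 2 and 3, and at 16431, 21580 and 16562 in stage 5. The groups did not overlap, and stage 1 replicate 3 stood above the other 2. The means were 53717 ± 17999.5 and 18191 ± 2936 (SD, n = 3 each), a 2.95-fold difference, with a log2 change of -1.52 ± 0.25 (SE) and a limma adjusted p of 8.67e-05. The test against 2-fold gave a limma treat adjusted p of 0.0611, so a fall of more than 2-fold was not shown as deposited. With upper-quartile scaling the log2 change was -2.0002, with equal total reads -2.80 and after quantile normalization -4.11 (limma adjusted p 5.61e-06, 1.23e-07 and 7.08e-08). As deposited its level held through the middle stages, at 42750.0, 48790.4 and 44893 in the means of stages 2, 3 and 4, and was lower at stage 5. As a share of reads its level went down over the middle stages too, with 0.281% to 0.359% at stage 2, 0.193% to 0.279% at stage 3, 0.175% to 0.195% at stage 4 and 0.0588% to 0.0787% at stage 5, from 0.365% to 0.638% at stage 1.

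**Figure D3:**
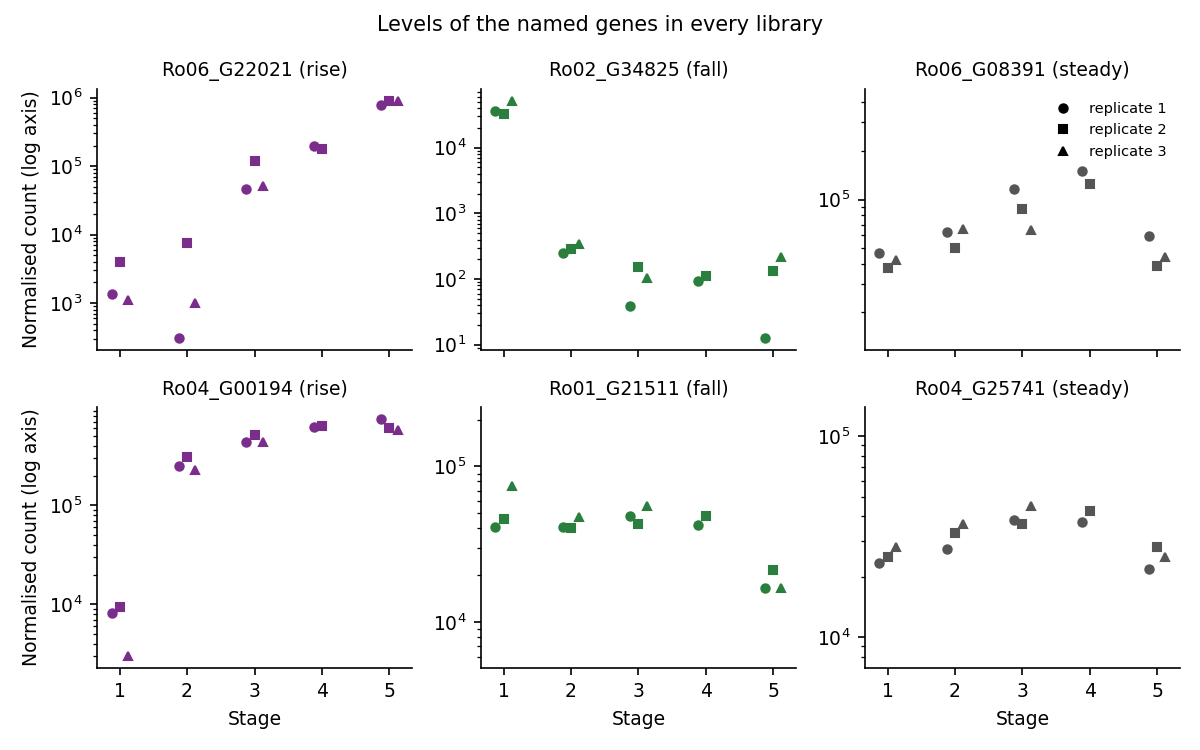
Normalised counts (y axis, log axis) of the named genes in all 14 libraries by stage (x axis), 1 point per library, with marker shapes for replicates. The 2 rises are on the left, the 2 falls in the middle and the 2 steady genes on the right. Ro04_G00194 and Ro02_G34825 had moved by stage 2, while on this deposited scaling Ro01_G21511 lay lower at stage 5.

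Some genes went from near absence to clear expression or the reverse. A gene was counted as switching on when every stage 5 library held 100 normalised counts or more and every stage 1 library under 10, and as switching off in the opposite case. There were 55 genes switching on (0.292% of those tested) and 590 switching off (3.13%). All of them were called in that direction by limma treat as changes of more than 2-fold, beside 15.2% (rising) and 30.9% (falling) of all genes. The limits that define both classes set the same libraries far apart, so this outcome was all but fixed by the choice. The 55 reached stage 5 means of 120 to 8178, with a median of 322, from stage 1 means with a median of 2.51. The 590 came from stage 1 means of 105 to 2630, with a median of 248, down to a median of 2.23. No reads at all were found in any stage 1 library for 3 of the 55 and in any stage 5 library for 62 of the 590. A count of 0 allows a level of up to 3 reads, which is 0.957 to 8.29 normalised counts by library.

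Neither class weighed much in the read pool, and the limits set part of this. No gene with a stage 1 mean of 5000 normalised counts or more lay under 10 in every stage 5 library. None of those genes could therefore be in the class switching off. The 590 genes switching off held 1.98% ± 0.07 of the stage 1 reads, and the 55 switching on held 0.147% ± 0.0105 of the stage 5 reads (SD, n = 3 each). Levels of 1000 or more in every library of the high stage were reached by 18 of the genes switching off and 6 of those switching on. Both counts moved with the limits used. They were 102 on and 1051 off when 50 normalised counts sufficed for the high stage, and 26 on and 1192 off with equal total reads.

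Levels at the low end differed between libraries of one stage. Of the 220 genes with a stage 1 mean of 5000 normalised counts or more, 46 had a stage 5 mean under 2% of it. In 45 of these 46, stage 5 replicate 1 was the lowest of the 3 stage 5 libraries. Their median level was 0.309% of the stage 1 mean in replicate 1, with quartiles of 0.0381% and 0.565%. It was 0.640% (0.328% to 1.06%) in replicate 2 and 0.791% (0.607% to 1.20%) in replicate 3. Of all 220 genes, the lowest stood at 0% of its stage 1 mean in replicate 1, at 0.0897% in replicate 2 and at 0.424% in replicate 3. None of the 220 was therefore under 10 normalised counts in replicate 3, against 15 in replicate 1, and none of them could count as switching off.

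The opposite set showed a smaller spread. Of the 825 genes with a stage 5 mean of 5000 or more, 82 had a stage 1 mean under 2% of it. Their median level was 0.752%, 0.866% and 0.536% of the stage 5 mean in stage 1 replicates 1, 2 and 3, and the lowest single values were 0.0210%, 0.0764% and 0.0545%. The lowest of the 3 stage 1 libraries was replicate 1 in 35 of these genes, replicate 2 in 13 and replicate 3 in 34. Replicates 2 and 3 of each of these stages share a code in their titles that replicate 1 does not have. What the code stands for is not stated in the labels, and its part in these levels was not tested. Fold changes of the largest falls rest on these low levels.

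**Figure D4:**
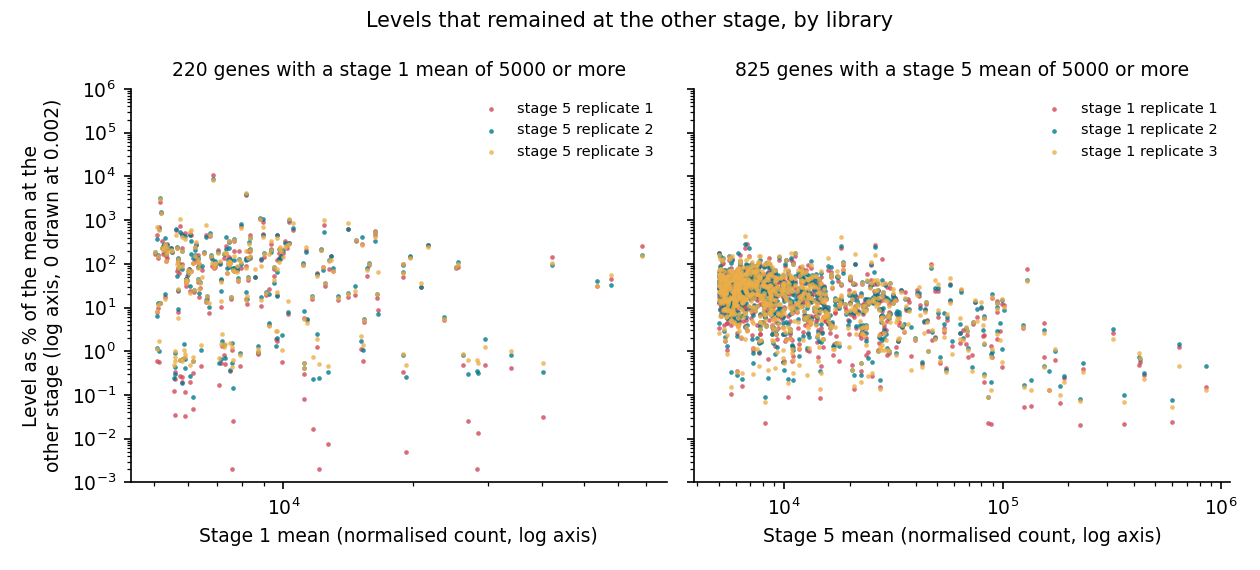
Level of each gene in single libraries of the other stage, as a percent of its mean at the stage where it was high (y axis, log axis, values of 0 drawn at 0.002), against that mean in normalised counts (x axis, log axis). On the left, for 220 genes abundant at stage 1, stage 5 replicate 1 reaches 0% while stage 5 replicate 3 stays at 0.424% or more; on the right are 825 genes abundant at stage 5.

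The changes were also taken apart in replicate 1 and in replicates 2 and 3, which share a title code within each stage. No code is shared between the stages, so this does not separate codes from stages. With replicates 2 and 3 alone, over the same 18820 genes, limma called 5636 rising and 7722 falling genes, with a median log2 change of -0.32 over all genes. The replicate 1 libraries, 1 a stage and so without a test, had a median of -0.27. Among the 8538 falling genes, 1001 fell by over 1 log2 unit more in replicate 1 and 794 by over 1 log2 unit more in replicates 2 and 3. Among the 6359 rising genes, 215 rose by over 1 log2 unit more in replicate 1 and 267 in replicates 2 and 3. Of the 14897 called genes, 14843 (99.6%) changed in the called direction in both sets. The genes were called with these same libraries, so the counts are a description.

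A smaller class of genes stayed level. For 4137 genes (22.0% of those tested) the 95% limma interval of the log2 change lay wholly between -1 and 1. Of these, 2520 were not called, while 1074 were called higher and 543 lower with changes under 2-fold. The remaining 1403 genes that were not called had intervals reaching past 2-fold, so no lack of change was shown for them. The steady genes held 28.6% ± 0.27 of the reads at stage 1 and 13.0% ± 0.44 at stage 5 (SD, n = 3 each). Steadiness is relative to the scaling: 332 genes stayed within these limits under all 4 scalings.

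The 2 steady genes with the highest mean over the 6 libraries were named by rule. Ro06_G08391 stood at 46396, 37750.3 and 42096 normalised counts in stage 1 replicates 1, 2 and 3, and at 59058, 38905 and 43733 in stage 5. The groups overlapped, with a log2 change of 0.15 ± 0.29 (SE), an interval of -0.47 to 0.77 and a limma adjusted p of 0.644. In between it was higher, at 89513 ± 25213 at stage 3 (SD, n = 3) and 137956 ± 17611 at stage 4 (SD, n = 2), so equal ends did not mean a level course. Ro04_G25741 stood at 23247, 25109 and 28220.0 in stage 1 and at 21889.9, 28126 and 25167 in stage 5. Its groups overlapped too, with a log2 change of -0.03 ± 0.20 (SE), an interval of -0.45 to 0.39 and a limma adjusted p of 0.895. With equal total reads both genes were called lower at stage 5, by -1.13 and -1.31 on the log2 scale (limma adjusted p 0.00152 and 1.75e-05). After quantile normalization the changes were -2.62 and -2.53 (limma adjusted p 1.57e-06 and 1.25e-07), and upper-quartile scaling also called Ro04_G25741 lower, by -0.51 (limma adjusted p 0.0248).

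Of the 4137 steady genes, 3870 (93.5%) also stayed within 2-fold of the ends in the means of stages 2, 3 and 4. A middle stage lay more than 2-fold above both ends in 159 of them and below both ends in 111. These are counts of means and were not tested.

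The course over the middle stages shows where the changes between the ends were made. For each gene the first stage was taken whose mean log2 level lay nearer to stage 5 than to stage 1. Among the 2867 genes that rose by more than 2-fold, this was stage 2 for 820 (28.6%), stage 3 for 1648 (57.5%), stage 4 for 201 (7.01%) and stage 5 for 198 (6.91%). Among the 5806 that fell by more than 2-fold it was stage 2 for 2142 (36.9%), stage 3 for 2778 (47.8%), stage 4 for 409 (7.04%) and stage 5 for 477 (8.22%). In both directions stage 3 was the most frequent. Of the genes switching off, 344 of 590 (58.3%) were nearer to their stage 5 level by stage 2, and of those switching on, 15 of 55 (27.3%). This difference was not tested.

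The median rising gene of this class had made 32.3% of its log2 change by stage 2, 81.0% by stage 3 and 90.4% by stage 4. For the median falling gene these shares were 35.1%, 79.6% and 88.9%. Courses that ran past the end or started the other way were uncommon. A middle stage went more than 2-fold beyond the stage 5 level in 170 of the rising (5.93%) and 323 of the falling genes (5.56%), and more than 2-fold against the later direction in 97 (3.38%) and 100 (1.72%). The ends of each course are the libraries of the comparison itself, so the courses are a description with no test, on the deposited scaling alone.

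**Figure D5:**
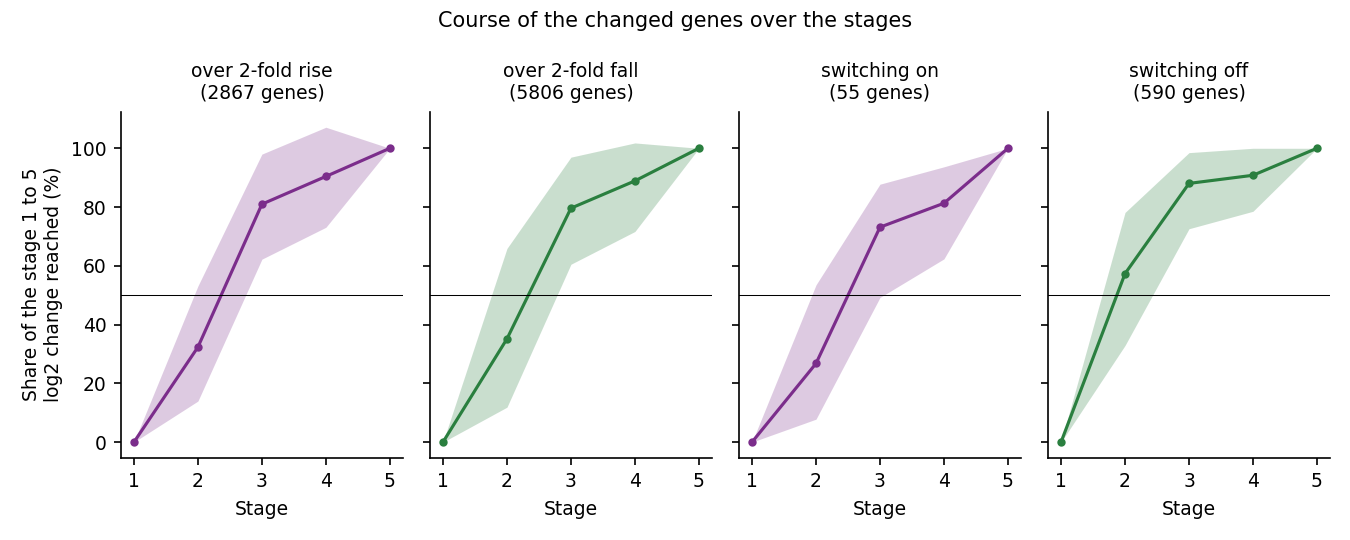
Share of the log2 change from stage 1 to stage 5 that was reached at each stage (y axis, percent) by stage (x axis), as the median gene (line) and the range between the quartiles (band), for 4 classes. The median of the 590 genes switching off is past 50% at stage 2, at 57.3%, while the other classes pass it between stages 2 and 3.

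Changed genes were spread over all identifier groups. Identifiers open with 1 of 7 prefixes, Ro01 to Ro07, whose meaning the table does not give. The share of tested genes that rose by more than 2-fold was 14.4% to 16.4% by prefix, beside 15.2% over all genes. The share that fell by more than 2-fold was 28.8% to 32.1%, beside 30.9%. Genes switching on numbered 5 to 12 per prefix and those switching off 62 to 115, among 2190 to 3546 tested genes per prefix. Over all tested genes 0.292% switched on and 3.13% off.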

How the data were processed

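RNA with an integrity number of at least 8 was selected on poly(A) and sequenced as stranded libraries, per the labels' protocols. The submitters' processing notes name Trimmomatic, HISAT2 and DESeq2; of these no version is given in the sources used here, nor is the read counter, genome build or annotation. The deposited table holds a normalised signal, for which the authors scaled each library's read counts by its own size factor. Dividing by the value of 1 read gave whole numbers, to within 0.01 read, for 100% of the values, so reads could be recovered. Total depth over the 14 libraries was 7576338 to 39938265 reads. Floors cover counting error only.

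Genes reaching 10 normalised counts in at least 2 of the 6 libraries of stages 1 and 5 were fitted on the log2 scale, after adding a pseudocount of 1, with limma 3.58.1 (R 4.3.3). The model held all 14 libraries, so that every stage added to the estimate of spread, and the prior variance followed a trend. Fold changes on this scale understate those of low genes. Changes beyond 2-fold were tested with treat, and steady genes taken from unadjusted 95% intervals. As alternatives on recovered reads, edgeR 4.0.16 called 14991 genes and DESeq2 1.42.0 called 14889. The procedure was tested on simulated data. Replicates within each of the 5 stages differed beyond counting noise, with a chi-square per gene of 12.1 to 133 between pairs. Named genes followed the rule given in the text. The members, lists and limits were chosen with earlier results of these data known.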

Additional observations from a re-analysis of the deposited data

How the results depend on the processing

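The count of called genes stayed within 1.5 times 14897 under every alternative run, from 12695 with a minimum of 50 normalised counts to 16859 without a filter. It was 13155 with replicates 2 and 3 only, a choice made after seeing the data, as was replicate 1 only. The split by direction did not. With equal total reads 2248 genes were called rising and 14244 falling, 1048 rose and 10064 fell by more than 2-fold, and 26 switched on and 1192 off. Of the 14897 calls, 1905 were then called in the opposite direction, against 468 after quantile normalization and 5 with upper-quartile scaling. Upper-quartile scaling gave 1909 rises and 7019 falls of more than 2-fold, and quantile normalization 3686 rises and 3548 falls. The scalings differ by construction in the level they hold constant. With an on level of 50 the counts were 102 on and 1051 off, with an off level of 5 they were 34 and 328, and with 1 library a stage (replicate 1 only) 114 and 1102, limits that are wider or narrower by construction. Leaving out single libraries gave 14080 to 14505 calls (6070 to 6183 rising and 7987 to 8342 falling), 2672 to 2814 rises and 5350 to 5634 falls of more than 2-fold, and 3732 to 3906 steady genes. Genes switching on then numbered 55 to 69 and those switching off 614 to 713, beside 55 and 590 with all 6 libraries. A library left out removes a limit, so the counts of switching genes could not go down. Ro02_G34825 changed by -9.85 to -7.85 on the log2 scale when single libraries were left out, and by -11.35 in replicate 1 only. DESeq2 gave no adjusted p for 40 genes, Ro06_G22021 among them (log2 change 8.64). Replicate numbers were not treated as pairs in the main fit. Same-numbered libraries of the 2 stages deviated from their stage means with correlations across genes of 0.16, 0.09 and -0.08. Stage 1 replicates 1 and 2 correlated best with their own number, and stage 1 replicate 3 with stage 5 replicate 2 (0.15). Deviations from a mean of 3 libraries constrain each other, so these values do not settle whether libraries were paired. With a replicate block on the 6 libraries 14394 genes were called, and without the block on the same libraries 14333. On these 6 libraries without the block, the limma adjusted p was 3.45e-06 for Ro06_G22021 and 8.88e-06 for Ro04_G00194. It was 5.62e-05 for Ro02_G34825 and 0.00158 for Ro01_G21511. Low levels are limited by depth, with 3 reads worth up to 8.29 normalised counts.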
